A study of Homo sapiens with 18 samples.

Results

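The genes described here are 10 genes whose products sit on the surface of monocytes, are secreted by them or work in their lysosomes and signalling. They were taken by name from a set drawn up with earlier results of these data known, and all 10 matched a single identifier among the 35168 gene identifiers of the tables. CD14 (5), VCAN (5), FCN1 (9), CD4 and LYZ (12), ANPEP (15), CD68 (17), CST7 (20) and FCGR3A and FGR (1) lie on the chromosomes given in brackets. Their RNA was measured in H1 cells, an established line of human embryonic stem cells, that were either USB1 mutant or WT. The mutant cells carried the c.531_delA deletion in USB1, an RNA exonuclease, introduced with CRISPR/Cas9 and followed by manual picking of cells, and the WT cells carried no USB1 edit. Each genotype was sequenced as embryonic stem cells at day 0 (D0), as hematopoietic progenitors at day 16 (D16) and as mature blood cells at day 30 (D30) of serum-free blood differentiation, with 3 libraries in each of the 6 groups and 18 libraries in all. Neither the number of mutant clones nor the use of separate cultures for the libraries of a group is stated in the labels, and the spread behind the p-values may therefore be technical.

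Monocytes are circulating phagocytes that arise from myeloid progenitors and can enter tissues as macrophages. The usual classical monocyte displays CD14, a co-receptor that hands bacterial lipopolysaccharide to Toll-like receptors, while the nonclassical type displays CD16, the low-affinity IgG receptor encoded by FCGR3A. Classical monocytes also secrete the pattern-recognition lectin ficolin-1 (FCN1), the cell-wall-cutting enzyme lysozyme (LYZ) and the matrix proteoglycan versican (VCAN). None of the 10 genes is used by monocytes alone: neutrophils make lysozyme, stem and stromal cells make versican, and CD4 is best known as the helper T cell co-receptor.

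Library totals ran from 4125102 counts in mutant D30 replicate 3 to 19368903 in WT D30 replicate 2. Values are CPM, counts scaled to a common library size with TMM factors. Calls rest on edgeR quasi-likelihood p-values adjusted by Benjamini-Hochberg across every gene tested, with 0.1 as the threshold. USB1 RNA itself was at 83.9 to 89.0 CPM in mutant and 73.8 to 85.2 CPM in WT cells at D0, at 47.5 to 58.3 CPM in mutant and 49.997 to 59.4 CPM in WT cells at D16, and at 41.8 to 65.5 CPM in mutant and 61.6 to 70.5 CPM in WT cells at D30. It was called on no day, and its level does not check a deletion that leaves the transcript in place. Markers of the labelled stages were read in both genotypes. CD34, the progenitor marker, was at 131 to 159 CPM in mutant and 74.2 to 170 CPM in WT cells at D16. It was at 3.67 to 5.45 CPM in mutant and 4.79 to 6.08 CPM in WT cells at D0, and at 7.46 to 18.9 CPM in mutant and 13.9 to 14.7 CPM in WT cells at D30. POU5F1, the pluripotency factor, was at 762 to 885 CPM in mutant and 672 to 722 CPM in WT cells at D0, and at 3.98 to 5.57 CPM in mutant and 3.49 to 5.52 CPM in WT cells at D16. PTPRC, which encodes the pan-leukocyte protein CD45, was at 419 to 581 CPM in mutant and 590 to 819 CPM in WT cells at D16, and at 242 to 447 CPM in mutant and 538 to 718 CPM in WT cells at D30. The paper describes the sequenced D16 progenitors as CD34+/CD45+ cells. High CD34 and PTPRC RNA at D16 is therefore no independent check of that stage. In bulk RNA, fewer cells of a type and less RNA per cell cannot be told apart. Mutant D30 replicate 1 stood apart, since it had the lowest value of the mutant group for 9 of the 10 genes, all but ANPEP. Mutant D16 replicate 1 had the lowest mutant value for 7 of the 10, among them 5 of the 6 called lower at D16, and WT D30 replicate 2 had the lowest WT value for 7.

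The sequence before the transcription start was read for 7 of the 10 genes, all but LYZ, CD4 and CST7, from RefSeq's GRCh38.p14 annotation. Of these 7, CD14, FCN1, CD68 and FGR held GAGGAA on either strand within 250 bases before the start, the core letters bound by PU.1, the ETS factor of myeloid cells. The same letters are in 23.4% of 27305 promoters of this length. These 4 are shown because they carry the letters. In the edgeR fit FCN1 and FGR were called lower in mutant cells at D16 and D30, CD68 at D16 alone and CD14 on neither day. A part of the letters in these differences was not tested. Capitals mark GAGGAA or its complement. They also mark the AP-1 letters TGANTCA, found in 6.60% of promoters, and the C/EBP letters TTGCNNAA on either strand, found in 9.13%. No marked match overlaps another.
FCN1, chr9:134917913-134918162, minus strand: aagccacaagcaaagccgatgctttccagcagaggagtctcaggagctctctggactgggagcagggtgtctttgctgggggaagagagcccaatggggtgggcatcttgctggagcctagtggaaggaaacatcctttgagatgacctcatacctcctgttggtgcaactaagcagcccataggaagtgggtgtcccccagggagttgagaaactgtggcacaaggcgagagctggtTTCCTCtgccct
FGR, chr1:27635186-27635435, minus strand: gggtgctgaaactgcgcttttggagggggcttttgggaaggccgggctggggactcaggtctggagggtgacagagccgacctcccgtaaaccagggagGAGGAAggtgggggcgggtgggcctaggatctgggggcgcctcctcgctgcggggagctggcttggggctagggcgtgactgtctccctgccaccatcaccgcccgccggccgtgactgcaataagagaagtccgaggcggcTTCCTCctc
CD14, chr5:140633176-140633425, minus strand: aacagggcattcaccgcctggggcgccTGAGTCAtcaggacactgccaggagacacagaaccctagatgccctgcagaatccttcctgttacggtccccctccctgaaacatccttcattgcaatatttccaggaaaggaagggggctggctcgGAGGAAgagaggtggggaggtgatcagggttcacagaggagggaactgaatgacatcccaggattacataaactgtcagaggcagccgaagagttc
CD68, chr17:7579388-7579637, plus strand: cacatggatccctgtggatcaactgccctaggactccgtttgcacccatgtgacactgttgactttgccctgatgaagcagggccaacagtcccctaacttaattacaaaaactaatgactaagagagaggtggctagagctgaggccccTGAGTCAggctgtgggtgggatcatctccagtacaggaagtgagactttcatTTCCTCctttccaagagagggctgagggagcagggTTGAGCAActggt
The FCN1 match began 12 bases before the start and the FGR matches began 151 and 9 bases before it. In CD14 the PU.1 letters began 96 bases and the AP-1 letters 223 bases before the start. CD68 held all 3 kinds, with PU.1 letters at 48, AP-1 letters at 100 and C/EBP letters at 13 bases before the start. VCAN and the first listed starts of FCGR3A and ANPEP held none of the 3 in this window. The table lists 5 starts for FCGR3A and 2 each for ANPEP and FGR, and only the first of each was read. A match describes letters and does not show that a factor was bound.

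In stem cells the genes were nearly silent apart from VCAN, and the genotypes were not distinguished. VCAN had 1197, 1368 and 1255 CPM in the mutant D0 libraries, against 1490, 1329 and 1128 CPM in the WT D0 libraries. LYZ was low, at 7.36 to 9.90 CPM in mutant and 6.72 to 10.9 CPM in WT cells. CD68 had 1.47 to 1.75 CPM in mutant and 0.871 to 1.62 CPM in WT cells, and ANPEP had 1.54 to 2.36 CPM in mutant and 2.24 to 2.78 CPM in WT cells. The other 6 genes had 0 to 9 counts in any D0 library and were too low to test. Of the 4 genes tested at D0, edgeR called 0, none had an unadjusted p under 0.05 and DESeq2 also called 0, beside 2.93% of the 14719 genes tested. CD68 had a log2 fold change of 0.52 ± 0.34 (SE, adjusted p = 0.516) and ANPEP of -0.43 ± 0.28 (adjusted p = 0.532).

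**Figure D1:**
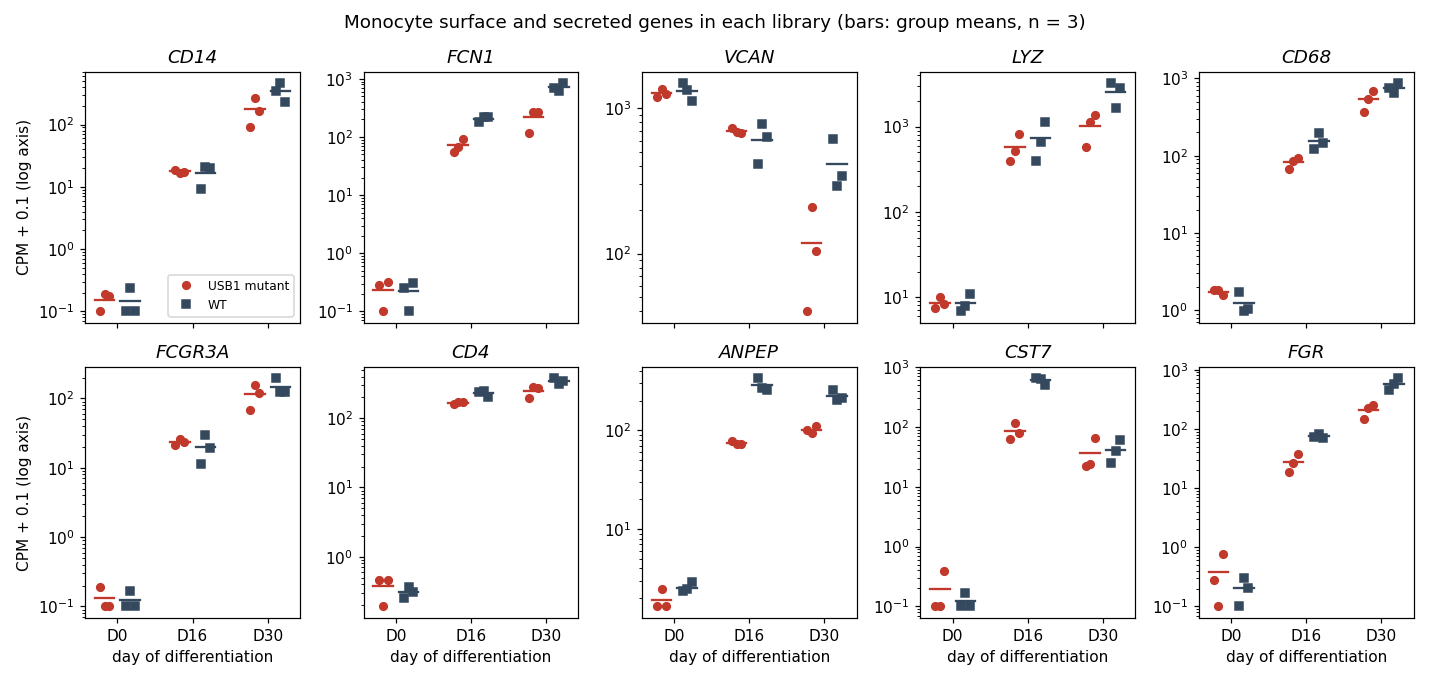
CPM + 0.1 on a log axis for each of the 10 genes in every library at D0, D16 and D30, with USB1 mutant (circles) left of WT (squares) and a bar at each group mean (n = 3). VCAN is the gene with its highest level at D0. The mutant points lie below all WT points for ANPEP, FGR, FCN1 and CD4 at D16 and D30.

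At D16, 6 of the 10 genes were lower in mutant progenitors and 0 were higher, beside 15.3% lower and 13.1% higher of all 14528 genes tested. CST7, ANPEP, FCN1, FGR, CD68 and CD4 fell, by 1.40 to 7.20-fold, while CD14, FCGR3A, VCAN and LYZ were not called. In each of the 6, all 3 mutant libraries lay below all 3 WT libraries, an order that 17.7% of all genes tested showed. The median log2 fold change over the 10 genes was -0.72, and over all genes tested it was 0.01.

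CST7 encodes cystatin F, an inhibitor of lysosomal cysteine proteases in immune cells, and differed most. It had 62.3, 115 and 78.7 CPM in mutant D16 libraries, against 646, 634 and 510 CPM in WT D16 libraries. The highest mutant library was far under the lowest WT library. The log2 fold change was -2.85 ± 0.22 (SE, edgeR adjusted p = 8.7e-05), or 7.20-fold lower. ANPEP, the surface aminopeptidase CD13 of myeloid cells, had 77.1, 73.4 and 72.6 CPM in mutant libraries and 336, 268 and 258 CPM in WT libraries. The mutant values varied little and were 3.97-fold lower (log2 -1.99 ± 0.14, adjusted p = 8.7e-05).

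FCN1, whose lectin product binds sugars on microbes, had 54.6, 67.6 and 93.2 CPM in mutant D16 libraries, against 178, 224 and 219 CPM in WT D16 libraries. It was 2.96-fold lower without overlap (log2 -1.56 ± 0.19, adjusted p = 5.5e-04). FGR, a Src-family kinase that signals from Fc receptors and integrins, had 18.6, 26.9 and 37.0 CPM in mutant and 73.1, 81.7 and 69.4 CPM in WT libraries. The mutant spread was wide, with replicate 1 at the low end, and the fall was 2.79-fold (log2 -1.48 ± 0.21, adjusted p = 0.0013).

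CD68, a lysosomal membrane glycoprotein of phagocytes, had 68.2, 85.9 and 92.3 CPM in mutant D16 libraries, against 122, 199 and 145 CPM in WT D16 libraries. It was 1.94-fold lower (log2 -0.96 ± 0.18, adjusted p = 0.0049). CD4, which monocytes carry at a lower level than T cells, had 159, 174 and 171 CPM in mutant and 238, 247 and 200 CPM in WT libraries. Its fall was the smallest called, 1.40-fold (log2 -0.48 ± 0.13, adjusted p = 0.026), and without WT D16 replicate 2 the adjusted p was 0.112.

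The 4 genes not called at D16 overlapped between genotypes. CD14 had 18.7, 16.9 and 17.4 CPM in mutant libraries, against 9.26, 21.0 and 20.3 CPM in WT libraries (log2 0.01 ± 0.25, adjusted p = 0.976). WT D16 replicate 1 was the low one, and it was also the lowest WT library for FCN1, VCAN, LYZ, CD68 and FCGR3A. VCAN had 728, 691 and 680 CPM in mutant and 416, 780 and 635 CPM in WT libraries (log2 0.16 ± 0.20, adjusted p = 0.596). LYZ had 397, 511 and 816 CPM in mutant and 394, 667 and 1132 CPM in WT libraries, where the spread within each genotype exceeded the difference between them (log2 -0.38 ± 0.34, adjusted p = 0.458). Its values rose with the replicate number in both genotypes, and with that number as a block LYZ was called (log2 -0.32, adjusted p = 0.094).

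FCGR3A had 20.9, 26.1 and 23.8 CPM in mutant D16 libraries, against 11.3, 29.7 and 18.9 CPM in WT D16 libraries (log2 0.19 ± 0.27, adjusted p = 0.664). This value is uncertain because FCGR3B, the neutrophil CD16 gene, is nearly identical in sequence and reads can be shared between them. FCGR3B had 5.76, 11.2 and 5.57 CPM in mutant libraries and 41.5, 115 and 24.5 CPM in WT libraries (log2 -3.05 ± 0.51, adjusted p = 0.0027). Both genes together summed to 26.7, 37.4 and 29.3 CPM in mutant and 52.8, 145 and 43.4 CPM in WT libraries, so the sum did not overlap while FCGR3A alone did. FCGR3A also lies on the long arm of chromosome 1, where the 686 genes tested at D16 had a median log2 fold change of -0.49 and 83.1% were below 0. In stem cells at D0 the 662 genes tested on this arm already had a median of -0.19, with 82.8% below 0. The part of this shift in the FCGR3A values was not tested.

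At D30, all 10 genes had fold changes below 0 and 5 were called lower in mutant cells, with 0 higher, beside 9.75% lower and 10.8% higher of 14263 genes tested. FCN1, FGR, ANPEP, LYZ and VCAN fell by 2.20 to 3.52-fold. FCN1, FGR and ANPEP were thus lower on both days, CST7, CD68 and CD4 were called at D16 alone, and LYZ and VCAN at D30 alone. In 6 genes, those 5 and CD4, all 3 mutant libraries lay below all 3 WT libraries, an order seen in 18.1% of all genes tested. The median log2 fold change was -1.06 for the 10 genes and -0.01 for all genes. The count of called genes was 3 without WT D30 replicate 1 and 3 without WT D30 replicate 3, because LYZ and VCAN were then lost. It was 5 without mutant D30 replicate 1 and 4 without mutant D30 replicate 3, the shallowest library.

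FCN1 had 118, 272 and 264 CPM in mutant D30 libraries, against 683, 618 and 840 CPM in WT D30 libraries. The mutant libraries were 3.27-fold lower and far from the WT range (log2 -1.71 ± 0.31, adjusted p = 0.011). FGR had 149, 223 and 253 CPM in mutant and 456, 565 and 712 CPM in WT libraries, 2.77-fold lower (log2 -1.47 ± 0.24, adjusted p = 0.0074). ANPEP had 101, 93.1 and 110.3 CPM in mutant and 253, 205 and 211 CPM in WT libraries, with little spread in either genotype. It was 2.20-fold lower (log2 -1.14 ± 0.15, adjusted p = 0.0041).

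LYZ, the highest of the 10 in TPM at D30, had 569, 1118 and 1361 CPM in mutant D30 libraries, against 3221, 1664 and 2831 CPM in WT D30 libraries. The groups came close, between mutant replicate 3 and WT replicate 2, and the fall was 2.53-fold (log2 -1.34 ± 0.35, adjusted p = 0.040). Without WT D30 replicate 1 or replicate 3 the adjusted p was 0.115 in both cases. VCAN had 39.9, 211 and 104 CPM in mutant and 615, 292 and 344 CPM in WT libraries. Its fall of 3.52-fold (log2 -1.81 ± 0.53, adjusted p = 0.057) was the least precise. With 1 library left out the log2 fold change ran from -2.54, without mutant replicate 2, to -1.39. The adjusted p was 0.159 without WT replicate 1, 0.108 without WT replicate 3, 0.144 without mutant replicate 3 and 0.120 with the deposited transcript lengths as offsets. The mean effective length of VCAN transcripts in these libraries was 2524 to 3712 bases in mutant and 3259 to 4174 bases in WT cells, so the mix of its transcripts also differed between libraries.

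CD14 was not called at D30 in the edgeR fit. It had 92.3, 271 and 163 CPM in mutant D30 libraries, against 344, 460 and 231 CPM in WT D30 libraries. Only mutant replicate 2 exceeded a WT library, and the log2 fold change was -0.98 ± 0.38 (adjusted p = 0.127). The same difference was called by DESeq2 (adjusted p = 0.038), in the fit over 18 libraries (0.037), with no count filter (0.055) and without mutant D30 replicate 2 (0.046), so CD14 lay near the threshold. CD4 had 199, 281 and 269.8 CPM in mutant and 376, 308 and 341 CPM in WT libraries (log2 -0.45 ± 0.17, adjusted p = 0.127), a change close in size to that at D16. It was called by DESeq2 (0.097) and in the 18-library fit (0.033).

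CD68, FCGR3A and CST7 overlapped between genotypes at D30. CD68 had 363, 549 and 689 CPM in mutant and 742, 648 and 865 CPM in WT libraries (log2 -0.49 ± 0.24, adjusted p = 0.216). FCGR3A had 67.9, 156 and 121 CPM in mutant and 194, 122 and 124 CPM in WT libraries (log2 -0.35 ± 0.30, adjusted p = 0.487), and FCGR3B was by then at 0.709 to 2.50 CPM in mutant and 2.74 to 8.28 CPM in WT cells. CST7, 7.20-fold lower at D16, had 22.4, 23.5 and 64.2 CPM in mutant and 24.4, 39.6 and 60.2 CPM in WT libraries (log2 -0.21 ± 0.45, adjusted p = 0.802).

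**Figure D2:**
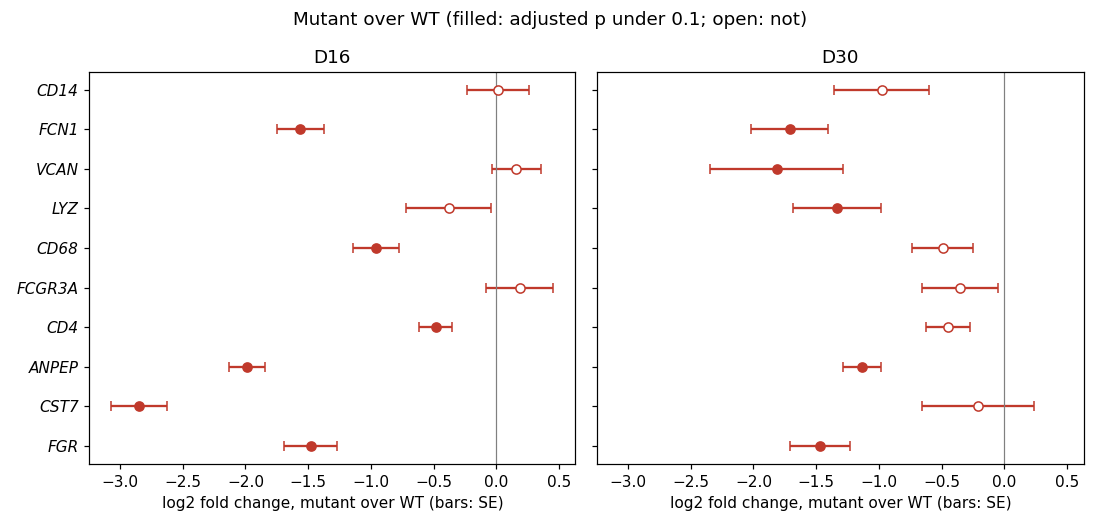
Log2 fold change of mutant over WT with its SE for the 10 genes at D16 (left) and D30 (right), where filled points had an adjusted p under 0.1. FCN1, ANPEP and FGR are filled on both days, and CST7 lies at -2.85 at D16 and at -0.21 at D30.

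Between D0 and D16, 9 of the 10 genes rose in each genotype and VCAN fell, beside 36.9% of 16829 genes higher and 36% lower in mutant and 37% higher and 39.3% lower in WT cells. The smallest rises called were those of ANPEP in mutant cells, 40.9-fold (log2 5.35 ± 0.18), and of LYZ in WT cells, 87.2-fold (log2 6.45 ± 0.47). CD14 and FCGR3A rose against very few D0 counts. CD14 had 695 counts at D16 and 2 at D0 over the mutant libraries, a ratio of 313 (95% exact interval 86.3 to 2590), and 688 and 2 over the WT libraries, a ratio of 341 (94.2 to 2825). FCGR3A had 932 counts and 1 count in mutant and 825 counts and 1 count in WT libraries, ratios of 840 (150.3 to 33194) in mutant and 819 (147 to 32386) in WT cells. These intervals cover counting error only. VCAN fell with a log2 fold change of -0.86 ± 0.39 in mutant (adjusted p = 0.056) and -1.11 ± 0.39 in WT cells (adjusted p = 0.016). The call in mutant cells was lost without replicate 2 (adjusted p = 0.108) or replicate 3 (0.219) and with transcript lengths as offsets (0.117). Among VCAN, LYZ, CD68 and ANPEP, the genes tested at D0, the change differed between genotypes for ANPEP and CD68. ANPEP rose less in mutant cells (log2 difference -1.52 ± 0.26, adjusted p = 0.0035), as did CD68 (-1.43 ± 0.45, adjusted p = 0.085). Both rest on few D0 counts, 17 to 35 a library for ANPEP and 9 to 21 for CD68. Without replicate 2 both were lost, with adjusted p = 0.185 for ANPEP and 0.606 for CD68, and CD68 was also lost without replicate 3 (0.171). The interaction was called for 7.62% of all genes, lower in 3.75%.

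Between D16 and D30 the genes parted. CD14, FGR, CD68, FCGR3A, FCN1, LYZ and CD4 rose in both genotypes and CST7 fell in both, beside 34.7% higher and 35.1% lower of all genes in mutant and 31.6% higher and 35.1% lower in WT cells. CD14 rose most, by 9.94-fold in mutant (log2 3.31 ± 0.36) and 20.1-fold in WT cells (log2 4.33 ± 0.37). FGR rose 7.54-fold in mutant and 7.72-fold in WT cells, CD68 rose 6.49-fold in mutant and 4.83-fold in WT cells, and FCGR3A rose 4.87-fold in mutant and 7.23-fold in WT cells. FCN1 rose 3.03-fold in mutant and 3.44-fold in WT cells, and CD4 rose 1.48-fold in mutant and 1.49-fold in WT cells. LYZ rose 1.77-fold in mutant (adjusted p = 0.056) and 3.52-fold in WT cells (adjusted p = 3.9e-04). In mutant cells the LYZ call was lost without replicate 2 (adjusted p = 0.286) and with transcript lengths as offsets (0.106).

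The genotypes differed in this later change for 3 of the 10 genes, beside 20.5% of all genes. VCAN fell in mutant cells by a log2 fold change of -2.56 ± 0.41 (adjusted p = 3.1e-05), while in WT cells it was -0.55 ± 0.39 (adjusted p = 0.225), and the difference was -2.01 ± 0.55 (adjusted p = 0.022). It was -0.95 without replicate 1 and -2.10 without replicate 3, with adjusted p = 0.134 in both, and -3.20 without replicate 2, where the fall in mutant cells was -3.31. Without replicate 1 VCAN fell in WT cells too (log2 -1.16, adjusted p = 0.0017). CST7 fell less in mutant cells, with -1.28 ± 0.37 against -3.85 ± 0.39 in WT cells (difference 2.56 ± 0.51, adjusted p = 0.0031), and its fall in mutant cells was -1.95 without replicate 3 and was not called without replicate 2 (adjusted p = 0.223). ANPEP rose slightly in mutant cells (log2 0.44 ± 0.13, adjusted p = 0.0076) and fell slightly in WT cells (-0.37 ± 0.13, adjusted p = 0.022), a difference of 0.81 ± 0.19 (adjusted p = 0.0082). Without replicate 2 the fall in WT cells (adjusted p = 0.148) and the difference (0.102) were not called. With transcript lengths as offsets the fall in WT cells was -0.26 and was not called either (adjusted p = 0.330). CD14 and LYZ had differences of -1.02 ± 0.47 (adjusted p = 0.161) and -0.99 ± 0.51 (adjusted p = 0.210), which were not called. Both were called with the replicate number as a block, at -1.18 (adjusted p = 0.062) for CD14 and -1.13 (adjusted p = 0.076) for LYZ. These day contrasts share the D16 libraries with the genotype comparison at D16.

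**Figure D3:**
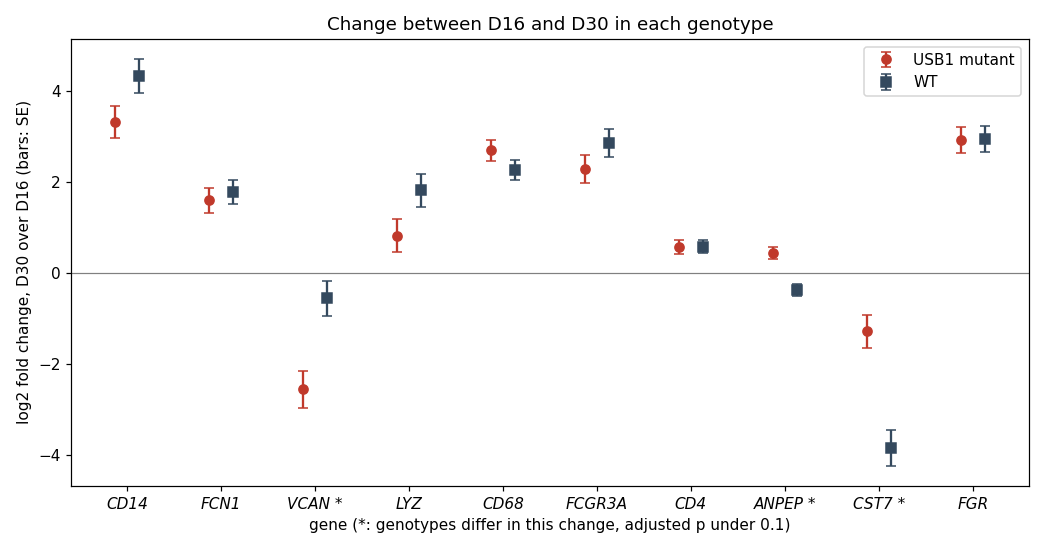
Log2 fold change of D30 over D16 with its SE in USB1 mutant (circles) and WT cells (squares) for each gene, with a star where the genotypes differed in it. CD14 has the highest value in both genotypes, and VCAN, ANPEP and CST7 carry the star.

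Levels can be compared between genes only per length, in the deposited TPM, an abundance divided by transcript length. At D16 the order in mutant cells was led by LYZ at 568 ± 231 TPM, VCAN at 207 ± 20 TPM and CST7 at 164 ± 46 TPM, with VCAN and CST7 overlapping (SD, n = 3). In WT cells CST7 led at 1089 ± 176 TPM, overlapping with LYZ at 669 ± 316 TPM, and VCAN followed at 149 ± 36 TPM. CD14, FGR, FCGR3A and FCN1 held the last 4 places in both genotypes, between 11.5 and 19.2 TPM in mutant and 14.6 and 42.5 TPM in WT cells. In mutant cells neighbours among these 4 overlapped, while in WT cells only CD14 and FCGR3A did.

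At D30 LYZ led both genotypes, with 938 ± 395 TPM in mutant and 2909 ± 844 TPM in WT cells, and no other gene overlapped it, narrowly so in mutant cells. CD68 came next at 402 ± 119 TPM in mutant and 690 ± 68 TPM in WT cells, overlapping with CD14 in mutant cells only. CD14 and FGR followed, where CD14 had 176 ± 104 TPM in mutant and 419 ± 156 TPM in WT cells and FGR had 136 ± 27 TPM in mutant and 418 ± 68 TPM in WT cells, and they did not differ beyond their spread in either genotype. The other 6 genes lay between 32.6 and 108 TPM in mutant and between 85.4 and 175 TPM in WT cells, and each neighbour in that order overlapped the next. The TPM of FCN1 rests on an effective length of 7001 to 7354 bases at D30, which lowers it relative to its counts.

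The genes whose log2(TPM + 1) followed each member most closely over the 18 libraries were found among 15693 genes with a mean of at least 1 TPM. For CD14 they were SIGLEC9 (Pearson r 0.994), HAVCR2 (0.994) and GK (0.992). FCN1 went with THEMIS2 (0.994) and BCL2A1 (0.993), and LYZ with SGK1 (0.992), PRKCD (0.992) and NLRC4 (0.992). CD68 went with CTSS (0.996), NFAM1 (0.995) and FCGR1A (0.994), FGR with FCGRT (0.995), IFI30 (0.994) and MCEMP1 (0.994), and FCGR3A with DENND2D (0.994), SERPINA1 (0.994) and SIGLEC7 (0.993). For CD4 the nearest were HCLS1 (0.998), LAPTM5 (0.998) and PIK3CG (0.997). CST7 went with P2RY2 (0.990), SPNS3 (0.989) and IL3RA (0.988), and ANPEP with LRPAP1 (0.990), OS9 (0.987) and CISH (0.986). VCAN, which alone was highest in stem cells, had the weakest neighbours, IFITM3 (0.963), XRN2 (0.959) and DR1 (0.956). The libraries share the 3 stages and these values describe mainly the steps between them.

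Genes that work with the members were read from lists. The counts of every list below stand beside 13.1% higher and 15.3% lower of all genes tested at D16. At D30 the shares of all genes tested were 10.8% higher and 9.75% lower. Of 13 partners of CD14 in lipopolysaccharide sensing, all tested, 2 were higher and 3 lower in mutant cells at D16 (median log2 -0.15), and 0 were higher and 3 lower at D30 (median -0.40). At D16 CD180, a TLR4 relative, averaged 48.8 ± 3.2 CPM in mutant and 18.6 ± 4.3 CPM in WT cells (log2 1.35 ± 0.17, adjusted p = 6.3e-04), and TLR1, a partner of TLR2, averaged 29.5 ± 0.8 CPM in mutant and 15.5 ± 3.7 CPM in WT cells (log2 0.87 ± 0.18, adjusted p = 0.0063). The adaptors TICAM1 and TIRAP were lower, with log2 fold changes of -0.73 ± 0.17 (adjusted p = 0.014) and -0.72 ± 0.17 (adjusted p = 0.016). At D30 the receptor TLR2 averaged 64.0 ± 24.1 CPM in mutant and 126 ± 12 CPM in WT cells (log2 -0.98 ± 0.26, adjusted p = 0.040), and the adaptors MYD88 (log2 -0.86 ± 0.22, adjusted p = 0.037) and TIRAP (-0.67 ± 0.19, adjusted p = 0.048) were also lower.

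Of 13 Fc receptor chains and signalling enzymes, which hold Src and Syk family kinases, the kinase FES and the phosphatase PTPN6, 3 were higher and 8 lower at D16 (median log2 -0.36), and 1 was higher and 5 lower at D30 (median -0.65). FCGR2A, an activating IgG receptor, averaged 239 ± 8 CPM in mutant and 495 ± 80 CPM in WT cells at D16 (log2 -1.09 ± 0.15, adjusted p = 9.6e-04). FCER1G, the signalling chain that pairs with CD16, averaged 94.5 ± 12.2 CPM in mutant and 182 ± 42 CPM in WT cells (log2 -0.99 ± 0.17, adjusted p = 0.0032). Both lie on the long arm of chromosome 1, with its median of -0.49 at D16. SRC, a kinase, was higher at D16 (log2 0.79 ± 0.13, adjusted p = 0.0027) and lower at D30 (-0.74 ± 0.16, adjusted p = 0.022). FCGR1A, the high-affinity IgG receptor, was lower at D30 (-0.67 ± 0.20, adjusted p = 0.060), and FYN, a kinase also used by lymphocytes, was higher (1.28 ± 0.35, adjusted p = 0.046). FCGR1A, FCGR2B and FCGR3B are on chromosome 1 as well, whose long arm had a median of -0.31 at D30. Of the genes tested on this arm, 352 of 686 were called lower and 26 higher at D16. At D30, 192 of 678 were called lower and 48 higher. The part of this shift in the counts of this list was not tested.

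Of 11 lysosomal proteases and cystatins, the relatives of cystatin F, 3 were higher and 3 lower at D16 (median log2 0.02), and 0 were higher and 2 lower at D30 (median -0.47). CSTA, a cytosolic cystatin, averaged 41.0 ± 5.6 CPM in mutant and 106 ± 24 CPM in WT cells at D16 (log2 -1.41 ± 0.17, adjusted p = 5.9e-04), and CSTB was lower too (-0.72 ± 0.19, adjusted p = 0.022). LGMN, the lysosomal protease legumain, was higher at D16 (log2 1.49 ± 0.32, adjusted p = 0.0089). CTSS, the cathepsin of antigen-presenting cells, was lower at D16 (-0.55 ± 0.13, adjusted p = 0.015) and at D30 (-0.89 ± 0.23, adjusted p = 0.038), where it averaged 556 ± 134 CPM in mutant and 1034 ± 209 CPM in WT cells. It too lies on the long arm of chromosome 1, where the median log2 fold change was -0.49 at D16 and -0.31 at D30. CTSZ was lower at D30 (-0.46 ± 0.14, adjusted p = 0.071).

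Of 22 other monocyte genes, 20 were tested, of which 7 were higher and 4 lower at D16 (median log2 0.27), and 0 were higher and 6 lower at D30 (median -0.57). At D16 CLEC12A, an inhibitory lectin, averaged 7.11 ± 2.60 CPM in mutant and 40.2 ± 15.0 CPM in WT cells (log2 -2.54 ± 0.33, adjusted p = 7.3e-04), and the granulocyte growth factor receptor CSF3R averaged 131 ± 25 CPM in mutant and 282 ± 43 CPM in WT cells (-1.15 ± 0.17, adjusted p = 0.0014). CD36, a scavenger receptor, was higher at D16, with 128 ± 16 CPM in mutant and 51.1 ± 21.9 CPM in WT cells (1.28 ± 0.27, adjusted p = 0.0076), and lower at D30, with 142 ± 19 CPM in mutant and 285 ± 56 CPM in WT cells (-1.003 ± 0.18, adjusted p = 0.011). CSF1R, the macrophage growth factor receptor, averaged 299 ± 55 CPM in mutant and 550 ± 116 CPM in WT cells at D30 (-0.88 ± 0.21, adjusted p = 0.028). KLF4, a factor of monocyte differentiation, was lower at D30 (-1.17 ± 0.23, adjusted p = 0.014), as was CSF3R (-1.59 ± 0.42, adjusted p = 0.041).

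Several other blood cell marker lists also differed between genotypes, some higher and some lower in mutant cells, and their part in the values of the 10 genes was not tested. Of all genes tested at D16, 13.1% were called higher and 15.3% lower. At D16 the 9 eosinophil markers, all called lower, summed to 6742 to 10650 CPM in mutant and 34794 to 63934 CPM in WT cells. None was at 0, and PRG2, a major granule protein, averaged 4576 ± 1103 CPM in mutant and 26381 ± 7543 CPM in WT cells. The 15 neutrophil markers, with 11 of 14 tested called lower and 1 higher, summed to 2965 to 4515 CPM in mutant and 4230 to 11196 CPM in WT cells. The 10 macrophage markers, with 5 of 7 tested called higher and 0 lower, summed to 268 to 363 CPM in mutant and 63.5 to 148 CPM in WT cells. Megakaryocyte and platelet markers (8 of 9 tested), endothelial markers (5 of 8) and pluripotency markers (3 of 6) had higher and 0 lower calls in mutant progenitors. The 12 erythroid markers, with 5 of 11 tested called higher and 0 lower, summed to 805 to 1355 CPM in mutant and 381 to 738 CPM in WT cells at D16. The 8 mast cell and basophil markers had 3 higher and 2 lower calls. The 14 T, NK and B lymphocyte markers, which bear on CD4, CST7 and FCGR3A, had 2 higher and 0 lower of 8 tested and summed to 116 to 137 CPM in mutant and 108 to 157 CPM in WT cells. Dendritic cell markers had 2 higher and 1 lower of 4 tested, and stromal markers 1 higher and 2 lower of 8.

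At D30 the 12 erythroid markers, of which 9 were called higher and 0 lower, summed to 34266 to 56413 CPM in mutant and 8834 to 12667 CPM in WT cells. Of all genes tested on that day, 10.8% were called higher and 9.75% lower. Mutant replicate 1, with the lowest values of 9 of the 10 monocyte genes, had the highest erythroid sum. It also had the lowest mutant sums of other monocyte, macrophage, neutrophil, eosinophil, mast cell and basophil, and megakaryocyte and platelet markers. Its dendritic and pluripotency sums were the highest of the mutant group. The 8 mast cell and basophil markers, with 6 called higher and 0 lower, summed to 930 to 1941 CPM in mutant and 208 to 302 CPM in WT cells. Of the 10 macrophage markers, 7 of 9 tested were called lower and 0 higher. They summed to 1194 to 1799 CPM in mutant and 2497 to 3313 CPM in WT cells. Of the 15 neutrophil markers, 9 of 13 tested were called lower and 1 higher. Their sums were 355 to 576 CPM in mutant and 1277 to 2009 CPM in WT cells. MMP9 alone averaged 218 ± 46 CPM in mutant and 1050 ± 94 CPM in WT cells, a large part of these sums. At this day eosinophil markers had 1 higher and 0 lower call of 8 tested, megakaryocyte and platelet, endothelial and stromal markers had 1 higher and 1 lower each, and dendritic (5 tested) and pluripotency markers (6 tested) had 0 calls in edgeR. Of those lists 1 gene each had an unadjusted p under 0.05, and DESeq2 called 1 dendritic and 3 pluripotency markers. The other monocyte genes summed to 1665 to 2318 CPM in mutant and 3405 to 3657 CPM in WT cells at D30. The T, NK and B lymphocyte markers, with 1 higher and 1 lower of 4 tested, summed to 41.0 to 45.0 CPM in mutant and 32.5 to 39.7 CPM in WT cells. KLRD1 was the higher one, with 35.2 ± 2.3 CPM in mutant and 25.7 ± 1.4 CPM in WT cells (log2 0.46 ± 0.15, adjusted p = 0.074). NKG7 was the lower one, with 1.25 ± 0.79 CPM in mutant and 5.83 ± 3.21 CPM in WT cells (log2 -2.37 ± 0.61, adjusted p = 0.038). MS4A1 and CD8A, which define B and cytotoxic T cells, were at 0 in all 6 D30 libraries.

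**Figure D4:**
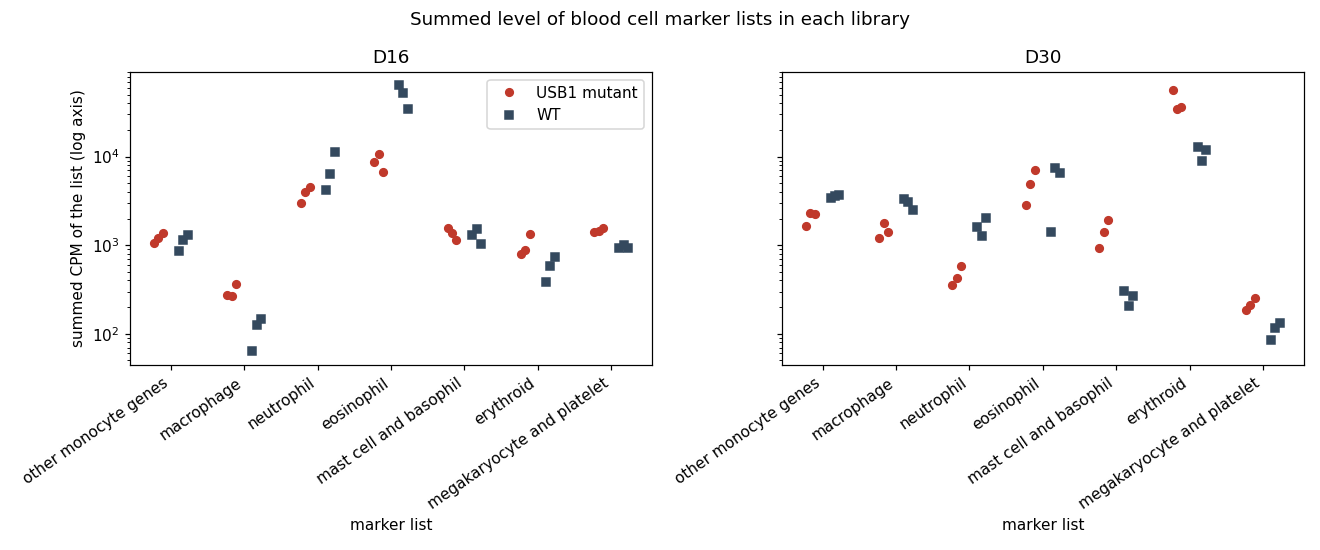
Summed CPM of 7 marker lists on a log axis in each library at D16 (left) and D30 (right), with USB1 mutant (circles) left of WT (squares). The eosinophil sums separate at D16 and overlap at D30, and the erythroid sums separate at D16 and D30, with mutant libraries above.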

How the data were processed

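Ribosomal RNA was depleted and strand-specific libraries were sequenced as paired ends. Per the submitters' processing notes and methods, the authors trimmed reads with Trimmomatic 0.36 and quantified Ensembl release 99 cDNA (GRCh38) with Salmon 0.13.1. Whether strand was used in quantification is not given in the sources used here. The authors deposited, per gene and library, expected counts, TPM (scaled by transcript length) and the average effective length. Expected counts were rounded for testing, and TPM served only for levels between genes and for likeness. A list of gene names gave symbols for 35051 of 35168 identifiers, and GENCODE v44 gave gene positions. No column was left unassigned.

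Genotypes were compared per day over 6 libraries, and days and interactions in a fit of 18 libraries, with edgeR 4.0.16 in R 4.3.3 (filterByExpr, TMM, quasi-likelihood) and Benjamini-Hochberg adjustment at 0.1, the threshold of the study. Alternatives used DESeq2 1.42.0, other scalings and filters, transcript lengths, a replicate block and leaving out libraries. On simulated data for the D30 comparison, 62% of 2-fold and 89% of 4-fold changes among 14263 genes were recovered. The 10 genes, the lists, the motifs and the tests were chosen with earlier results of these data known. Text names all 10 genes, up to 4 called genes with the smallest adjusted p per list and comparison, and the 3 genes most like each member, apart from items not reported here. Lists of dendritic, stromal, endothelial, megakaryocyte and pluripotent cell markers were also summed.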

Additional observations from a re-analysis of the deposited data

Results flagged for a closer look

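The difference between genotypes itself changed with time, by a test of the interaction over 18 libraries, for ANPEP and CD68 between D0 and D16 and for VCAN, ANPEP and CST7 between D16 and D30. Between D0 and D16 the log2 difference (change in mutant minus change in WT) was -1.52 ± 0.26 for ANPEP (edgeR adjusted p = 0.0035) and -1.43 ± 0.45 for CD68 (adjusted p = 0.085). Between D16 and D30 it was -2.01 ± 0.55 for VCAN (adjusted p = 0.022), 0.81 ± 0.19 for ANPEP (adjusted p = 0.0082) and 2.56 ± 0.51 for CST7 (adjusted p = 0.0031). The CST7 interaction was called in every alternative run. That of ANPEP between D16 and D30 missed the threshold without replicate 2 (adjusted p = 0.102), and its interaction between D0 and D16 did too (0.185). The VCAN interaction was lost without replicate 1 (0.134) and without replicate 3 (0.134). CD68, with 9 to 21 counts in D0 libraries, was lost without replicate 2 (0.606), without replicate 3 (0.171) and with transcript lengths as offsets (0.145). Between genotypes the summed erythroid markers did not overlap at D16 or at D30. The eosinophil sums did not overlap at D16 but did at D30, and the neutrophil sums overlapped at D16 but not at D30. MMP9 was a large part of the neutrophil sums at D30. Of the neutrophil markers tested at D16, 11 of 14 were already called lower and 1 higher, beside 15.3% lower and 13.1% higher of all genes. The part of these markers in the differences was not tested.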

How the results depend on the processing

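The 6 genes lower at D16 were called in all alternatives except CD4 without WT D16 replicate 2, and the count of members lower at D30, 5 in the fit per day, ran from 3 to 6 when 1 library was left out and from 4 to 7 under the other settings. Among single members, 888 values kept their direction and side of the threshold, 26 lost and 12 gained a call, and 26 changed sign.

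The count over all genes at D0, 432, was 177 with transcript lengths as offsets, 185 from the fit over 18 libraries, 227 at an adjusted p under 0.05 and 116 to 393 with 1 library left out. At D16, 4135 calls became 2450 to 5778 with 1 library left out. At D30, 2933 became 4892 from the 18-library fit, 1801 at an adjusted p under 0.05 and 1452 to 2958 with 1 library left out. The interaction between D0 and D16, 1282 calls, had 660 with length offsets, 662 at 0.05 and 90 to 852 without a replicate number, and that between D16 and D30, 3447 calls, had 1218 to 2627.

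None of the values that changed sign was called. With length offsets the log2 fold change was 0.046 for VCAN and -0.0067 for LYZ at D0, and -0.048 for CD14 at D16. With 1 library left out, VCAN at D0 ran from -0.13 to 0.040 and LYZ at D0 from -0.13 to 0.24. At D16 CD14 ran from -0.26 to 0.20, VCAN from -0.045 to 0.37, LYZ from -0.71 to 0.070 and FCGR3A from -0.076 to 0.59, and at D30 CST7 ran from -0.85 to 0.16. The interaction of VCAN between D0 and D16 ran from -0.14 to 0.53. Between D16 and D30 the interaction ran from -0.59 to 0.019 for FCN1, -1.33 to 0.14 for FCGR3A and -0.23 to 0.14 for CD4. That of CD4 was 0.016 with RLE size factors, 0.033 with at least 5 CPM in 3 libraries and 0.015 with DESeq2. That of FGR was 0.0057 with at least 5 CPM and ran from -0.21 to 0.31 without a replicate number. The cause was not tested.

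Libraries with the same replicate number did not all deviate together (correlations 0.09 to 0.17 at D0, 0.09 to 0.25 at D16 and -0.02 to 0.20 at D30), so the numbers were not used for pairing. With the replicate block, calls numbered 1718 at D0, 5404 at D16 and 3189 at D30, LYZ was called at D16 (adjusted p = 0.094), CD14 (0.023) and CD68 (0.094) were called at D30, and between D16 and D30 the interactions of CD14 (-1.18, adjusted p = 0.062) and LYZ (-1.13, adjusted p = 0.076) were called and that of FGR was 0.025. At D0 and D16 each library correlated best with its own number, at D30 not.

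Depth limits the D0 values of CD14, FCN1, FCGR3A, CD4, CST7 and FGR, which rest on 0 to 9 counts a library, and mutant D30 replicate 3 had 4125102 counts in all. The groups hold 3 libraries each. Reads shared between FCGR3A and FCGR3B cannot be assigned with certainty, and genotype and clone cannot be told apart.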
